A study of Mus musculus with 3 samples.

Results

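The effector cells described here are 1809 of the 5652 blood cells of this study that passed a cell filter, a share of 32.0% (95% Clopper-Pearson interval 30.8–33.2). They were chosen by their own RNA: 500 or more genes and no more than 10% mitochondrial counts per cell, at least 1 unique molecular identifier (UMI, 1 counted RNA molecule) of Gzma, at least 1 UMI of Zeb2 or S1pr5, and no UMI of Ccr7. The other 3843 filtered blood cells form the comparison, and all 3 libraries of the study held 18920 filtered cells. Gzma, Zeb2, S1pr5 and Ccr7 therefore differ by construction, and their values support nothing.

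After priming, CD8 T cells become effector cells that kill with perforin and granzymes, or memory cells that persist. ZEB2 is a zinc finger repressor that acts with the factor T-bet in the terminal effector programme, S1PR5 is a receptor for the blood lipid sphingosine 1-phosphate, and CX3CR1 (a fractalkine receptor) and KLRG1 (an inhibitory lectin-like receptor that binds cadherins) mark effector cells in blood. CCR7 takes naive and central memory cells to lymph nodes.

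Blood (PBMC) and tumour-draining lymph node (TdLN) cells came from C57BL/6 mice carrying B16.Gp, the B16.F10 melanoma line made to express the glycoprotein of lymphocytic choriomeningitis virus (LCMV). On day 8 of tumour growth these mice received naive CD44-GFP+ P14 cells, which carry a transgenic receptor for the GP33-41 epitope of that glycoprotein, from TCF-1-GFP reporter P14 mice. On day 16 after the transfer, CD8 T cells that were CD45.1+ and CD44+ were sorted. Memory P14 cells of day 200 after acute LCMV infection were sorted as CD45.1+, CD44+, KLRG1- and CD127+, among other markers. All groups are labelled wild type, but how many mice went into a library, and from which tissue memory cells came, is not stated. Tumour-infiltrating cells named in the design were not analysed here. Each group is 1 library of 10x Genomics 3′ single-cell sequencing, so cells are not replicates, no test between groups was possible, and intervals cover counting error only.

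The effector cells were shallower than the other blood cells. Their median was 5076 UMIs and 1675 genes per cell, against 10618 UMIs and 2166 genes in the other cells, and they summed to 9779758 against 39207502 UMIs. Ribosomal protein genes took 25.5% of the effector cells' counts and 42.8% of the other cells' counts. Values are given as CPM, a gene's counts scaled to a common total for the summed cells of a set. Because the ribosomal share is lower, the median gene was 0.44 higher on the log2 scale in the effector cells, and every ratio is to be read against that shift. Under TMM scaling, which centres the typical gene, this median was 0.01.

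The cells carried RNA of CD8 T cells. In CPM of summed counts, Cd8b1 was at 1501 in the effector cells and 1062 in the other cells, Cd3e at 538 and 354, and Trac at 599 and 391. Cd4 had no UMI in either set. Their receptor genes went only partly with the P14 label. The P14 receptor uses the beta chain segment Trbv13-3, and 72.5% (67.8–76.9) of the 389 beta chain V UMIs of the effector cells came from other segments, against 22.0% (20.04–24.0) of 1725 in the other blood cells. Trbv15 held 17.7%, Trbv29 10.8%, Trbv12-2 9.77% and Trbv19 9.51% of the effector cells' beta V UMIs. Alpha chain segments of the Trav14 family, also used by P14, held 30.2% (26.8–33.6) of 733 alpha V UMIs in the effector cells and 62.3% (60.3–64.3) of 2361 in the other cells. The blood library shared 15 filtered cell barcodes with the TdLN library, 6 of them effector cells, and 10 with the memory library, 4 of them effector cells.

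Promoters are shown for Gzma, a gene of the choice, and for the killing genes Gzmb, Gzmk and Prf1. They are shown because ZEB and T-box factors, with RUNX3, are known regulators of the effector programme. Each stretch runs 5′ to 3′ from 250 bases before to 50 after the annotated start (RefSeq, GRCm38.p6), all in lower case except matches to the ZEB E-box CACCTG, the T-box core GGTGTGA or the RUNX core AACCACA on either strand.
Gzma, chr13:113100932-113101231, minus strand: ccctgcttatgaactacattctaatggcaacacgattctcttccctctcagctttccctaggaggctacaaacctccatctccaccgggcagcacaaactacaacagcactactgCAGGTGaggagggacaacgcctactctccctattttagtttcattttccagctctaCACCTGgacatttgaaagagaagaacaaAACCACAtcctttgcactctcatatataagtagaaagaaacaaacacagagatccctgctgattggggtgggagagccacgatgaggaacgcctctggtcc
Gzmb, chr14:56262285-56262584, minus strand: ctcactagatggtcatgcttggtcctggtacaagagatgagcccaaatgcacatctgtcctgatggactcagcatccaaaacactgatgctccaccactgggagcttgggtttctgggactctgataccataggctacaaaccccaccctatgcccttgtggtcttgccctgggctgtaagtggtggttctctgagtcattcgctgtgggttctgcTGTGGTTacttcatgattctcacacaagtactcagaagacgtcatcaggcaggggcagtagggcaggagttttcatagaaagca
Gzmk, chr13:113180916-113181215, minus strand: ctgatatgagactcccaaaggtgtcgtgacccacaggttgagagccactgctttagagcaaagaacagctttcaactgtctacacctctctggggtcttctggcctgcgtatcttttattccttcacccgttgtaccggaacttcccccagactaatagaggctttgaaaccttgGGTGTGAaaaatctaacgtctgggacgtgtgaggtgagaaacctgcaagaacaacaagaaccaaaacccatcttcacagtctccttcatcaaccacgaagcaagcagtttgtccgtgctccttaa
Prf1, chr10:61297586-61297885, plus strand: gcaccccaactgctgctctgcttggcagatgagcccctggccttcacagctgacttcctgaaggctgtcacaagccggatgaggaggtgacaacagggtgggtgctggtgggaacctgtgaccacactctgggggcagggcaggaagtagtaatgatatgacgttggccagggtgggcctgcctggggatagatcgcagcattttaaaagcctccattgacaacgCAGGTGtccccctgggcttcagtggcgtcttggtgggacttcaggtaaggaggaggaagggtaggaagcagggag
The Gzma promoter held the E-box 135 and 79 bases before the start and the RUNX core 51 bases before it. Gzmb held the RUNX core 34 bases before its start, Gzmk the T-box core 75 bases before, and Prf1 the E-box 25 bases before, and no matches overlapped. Of 19 effector cell genes looked up, 15 had a promoter in the table, and 3 of these held the E-box, 2 the T-box core and 3 the RUNX core. Among all 32851 promoters of this length, 20.2% held the E-box, 3.98% the T-box core and 5.27% the RUNX core. A match is a run of letters and not a shown binding site.

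Gzma encodes granzyme A, a tryptase released by killer cells (chromosome 13, 113093825 to 113100981, mm10, GENCODE M21). It had a median of 26 UMIs per effector cell, with a 10th to 90th percentile range of 3 to 62 and a maximum of 388. Zeb2 (chromosome 2, 44983632 to 45117395) was seen in 91.3% of the effector cells and S1pr5 (chromosome 9, 21242912 to 21248443) in 59.3%. Both were seen in 914 cells (50.5%), Zeb2 without S1pr5 in 737 (40.7%) and S1pr5 without Zeb2 in 158 (8.73%). By the way the cells were chosen, Gzma was at 5691 CPM in the effector cells and 197 CPM in the other cells, Zeb2 at 465 and 27.3 CPM, S1pr5 at 176 and 9.74 CPM, and Ccr7 at 0 and 249 CPM.

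Cx3cr1 and Klrg1 were not conditions of the choice. Cx3cr1 (chromosome 9, 119901616 to 120069879) was detected in 81.3% of the effector cells and 20.8% of the other cells. After each cell was thinned to 3000 UMIs, the shares were 64.8% (62.5–67.01) of 1772 effector cells and 14.2% (13.1–15.4) of 3735 other cells. Klrg1 (chromosome 6, 122270596 to 122282882) was detected in 67.4% and 14.1%, and in 48.6% (46.3–51.0) and 8.49% (7.61–9.43) after thinning. Both genes were seen together in 1008 effector cells (55.7%), Cx3cr1 alone in 463, Klrg1 alone in 212 and neither in 126 (6.97%). The 5 markers thus did not form 1 uniform cell at this depth, and a cell without a UMI may still express the gene. Free RNA can also give a UMI to a cell that does not express the gene, and its part here was not tested. Ighm, a B cell gene, was at 11.6 CPM in the effector cells and 108 CPM in the other cells. The source of the Ighm UMIs was not tested.

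Cells just inside and just outside the conditions had close levels of several genes that the choice did not use. In the 111 effector cells with exactly 1 Gzma UMI, just inside, Cx3cr1 was at 303 CPM, Klrg1 at 154, Prf1 (perforin) at 179 and Tcf7 at 110.0 CPM. In the 408 cells with Zeb2 or S1pr5, no Gzma and no Ccr7, just outside, they were at 289.5, 152, 190.1 and 96.8 CPM. In the 358 cells with Gzma but neither Zeb2 nor S1pr5 and no Ccr7, Cx3cr1 was at 180.2, Klrg1 at 95.05, Prf1 at 184 and Tcf7 at 99.8 CPM. The 1364 effector cells with at least 10 Gzma UMIs had Cx3cr1 at 438.5, Klrg1 at 265, Prf1 at 287 and Tcf7 at 30.5 CPM. The 52 cells left out for a single Ccr7 UMI had Cx3cr1 at 307 and Tcf7 at 103 CPM, and the 55 with more Ccr7, whose median depth was 17415 UMIs, had Cx3cr1 at 174 and Tcf7 at 219 CPM. In the 2970 cells outside all these sets, Cx3cr1 was at 13.2 and Tcf7 at 255 CPM.

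**Figure D1:**
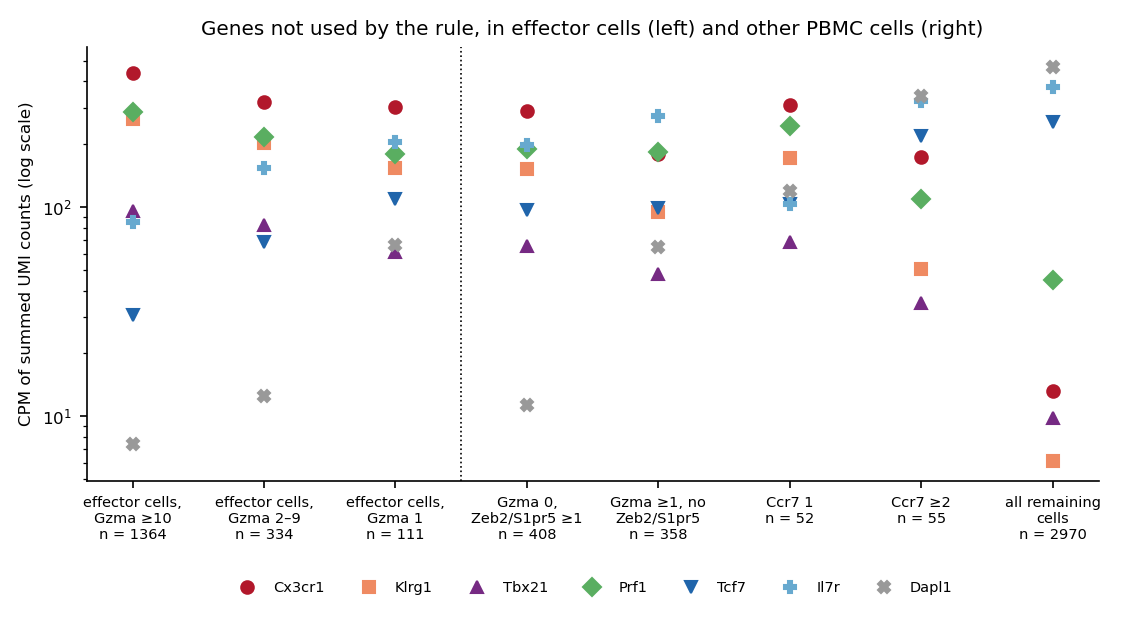
CPM of summed counts (log axis) of 7 genes that the choice did not use, in 3 Gzma classes of the effector cells left of the dotted line and in 5 sets of other blood cells right of it; each point is 1 summed set, with its number of cells below. Cx3cr1 is at 303 CPM just inside and 289.5 CPM just outside, Dapl1 differs more, at 66.0 and 11.3 CPM, and the set at the far right has Cx3cr1 at 13.2 CPM.

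Among 4843 genes with at least 20 CPM on the higher side, 387 passed 2-fold upward in the effector cells, 7.99% of those compared, and 106 passed it downward, 2.19%. Under TMM scaling these counts were 170 higher, 3.51%, and 249 lower, 5.14%. These genes were read in the same cells that the choice sorted, so counts and ratios are a description. The 12 genes with the highest ratios were led by lectin-like receptors. Klra9, a gene of the Ly49 receptor family of natural killer (NK) cells, was at 55.5 (51.0–60.4) CPM in the effector cells and 3.14 CPM in the other cells, 17.7-fold (14.5–21.7) higher. Klrg1 was 10.9-fold (10.1–11.8), Klrb1c (NK1.1) 9.99-fold (8.52–11.7), Klre1 9.94-fold (9.25–10.7) and Klrc1 (NKG2A) 5.85-fold (5.598–6.11) higher. Cx3cr1 was at 407 CPM in the effector cells and 45.9 CPM in the other cells, 8.87-fold (8.39–9.38) higher.

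The other 6 of the highest genes have varied roles. Kcnj8, an ATP-sensitive potassium channel subunit, was at 159 CPM in the effector cells and 15.6 CPM in the other cells, 10.2-fold (9.30–11.2) higher. The chemokine gene Ccl4 was 7.07-fold higher, at 195 and 27.5 CPM. Bhlhe40, a transcription repressor of activated T cells, was 7.02-fold higher, at 101 and 14.4 CPM. Gzmb, the caspase-cleaving granzyme B, was 6.93-fold (6.62–7.25) higher, at 531 and 76.6 CPM. The lipid transfer gene Stard10 was 6.26-fold higher, at 111 and 17.7 CPM, and the arsenite methyltransferase gene As3mt 5.72-fold higher, at 89.98 and 15.7 CPM. Of these 12 genes, 7 lie on chromosome 6, which carries 5.23% of the genes compared. Of all 387 genes at least 2-fold higher, 27 lie there, 6.98%. All 8 measured Klr genes between 122270596 and 130193112 of chromosome 6, among them the NK gene complex, were at least 2-fold higher, whereas Cd69 within the same stretch was at 47.9 CPM in the effector cells and 180 CPM in the other cells.

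Among the genes with the lowest ratios, Dapl1, Igfbp4, Nsg2 and Actn1 are on the list of naive genes and Jun is on that of immediate early genes. Dapl1 was at 12.2 (10.1–14.6) CPM in the effector cells and 413 CPM in the other cells, 33.9-fold (28.3–41.0) lower. The size of such ratios moved with the choice. Without the Ccr7 condition, the log2 ratio was -3.26 for Dapl1 and -2.94 for Igfbp4, against -5.08 and -4.88 with it. Tmem108 had 8 UMIs in all effector cells and was at 0.818 and 55.3 CPM. Tdrp was at 1.43 and 50.9 CPM, Igfbp4 at 2.35 and 69.4, Rflnb at 1.84 and 53.7, and Nsg2 at 3.37 and 72.8. Rgs10, which shortens G protein signals, was 21.5-fold lower, at 10.9 and 235 CPM, and the actin crosslinker Actn1 17.8-fold lower, at 5.21 and 92.7 CPM. Socs3, an inhibitor of cytokine signalling, was 15.3-fold lower, Ms4a4c 6.24-fold lower and the AP-1 subunit Jun 5.53-fold lower. The ribosomal protein genes moved together: 78 of 80 had a ratio below 1, with a median log2 ratio of -0.68, and Rps20 was the lowest, at 2800 CPM in the effector cells and 8443 CPM in the other cells.

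**Figure D2:**
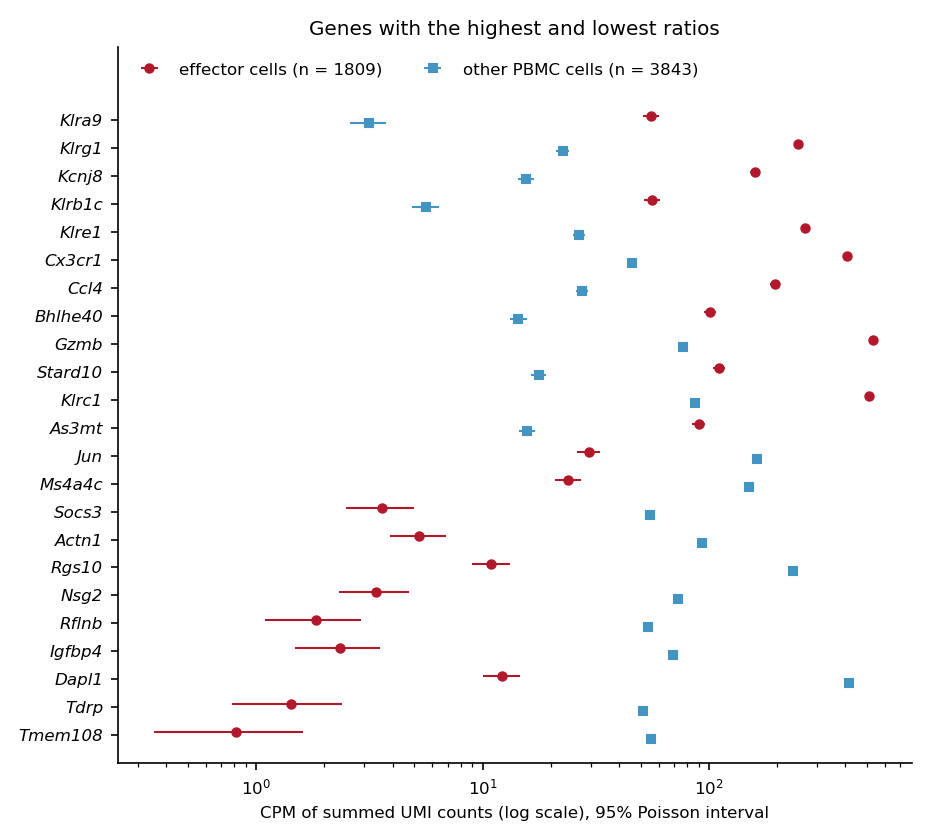
CPM of summed counts (log axis) of the genes with the highest and lowest ratios, in the effector cells (red circles, n = 1809) and the other blood cells (blue squares, n = 3843); bars are 95% Poisson intervals, which cover counting error only. Klra9 at the top was at 55.5 CPM in the effector cells and 3.14 CPM in the other cells, and Tmem108 at the bottom at 0.818 and 55.3 CPM.

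Among NK receptor genes, 9 of 9 measured were at least 2-fold higher, with a median log2 ratio of 2.55, against 7.99% of all genes compared. Against other blood cells of 4000 to 7000 UMIs, 4 of 9 were, with a median of 0.80. Klrk1 (NKG2D) was at 563 CPM in the effector cells and 120 CPM in the other cells, and Klrd1 (CD94, the partner of NKG2A) at 759 and 356 CPM. Genes that define NK cells were near 0: Ncr1 (NKp46) had 2 UMIs, both in 1 of the 1809 effector cells, and the adaptor genes Tyrobp and Fcer1g were at 6.03 and 5.21 CPM, against 3.34 and 2.76 CPM in the other cells. The summed level of the 6 NK marker genes was 73.9 CPM in the effector cells and 12.4 CPM in the other cells, mostly Klrb1c. Without the 154 effector cells that had at least 2 UMIs of the NK markers, and the other cells that did, 396 genes were at least 2-fold higher and 105 lower. Klr genes have near-identical copies, among which reads may be split.

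Cytotoxic genes were higher as a group than in all other blood cells. Apart from Gzma, 9 of 15 measured were at least 2-fold higher and none lower, with a median log2 ratio of 1.20. Of all genes compared, 7.99% were at least 2-fold higher. Against other blood cells of 4000 to 7000 UMIs, 0 of 15 cytotoxic genes were, with a median of 0.31. Gzmk (granzyme K) was at 236 CPM in the effector cells and 45.1 CPM in the other cells, Prf1 at 266 and 64.9, and the death ligand gene Fasl at 88.3 and 17.8. Serpinb9, which protects killer cells from granzyme B, was at 58.7 and 14.1 CPM, and the granule gene Nkg7 at 3012 and 1231 CPM. Gzmm (granzyme M) was 1.73-fold higher, below 2-fold, at 143 and 82.6 CPM.

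Effector regulators followed, with 7 of 11 measured genes at least 2-fold higher besides Zeb2 and a median log2 ratio of 1.40. Against the 950 other blood cells of 4000 to 7000 UMIs, 0 of 11 were, with a median of 0.30. Tbx21, which encodes T-bet, was at 91.3 (85.4–97.5) CPM in the effector cells and 16.5 CPM in the other cells, 5.54-fold (5.00–6.14) higher. Prdm1 (Blimp-1) was at 26.4 and 4.41 CPM, Id2 at 973 and 277, and Rap1gap2 at 40.3 and 8.03. Eomes, the related T-box gene, was at 38.5 and 33.1 CPM, a log2 ratio of 0.22 and below the shift of the median gene.

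Secreted factors were led in level by Ccl5, at 40405 CPM in the effector cells and 9307 CPM in the other cells, 4.34-fold (4.32–4.36) higher. Against the 950 other blood cells of 4000 to 7000 UMIs, called depth-matched, with 33920 CPM, it was 1.19-fold (1.18–1.20) higher. Ccl5 alone made up a larger share of the effector cells' counts than any other gene named here. Ifng was 4.97-fold higher, at 82.5 and 16.6 CPM, and Ccl9 was at 20.04 and 1.15 CPM. The lymphotoxin gene Ltb was at 325 and 709 CPM. In all, 4 of 6 measured chemokine and cytokine genes were at least 2-fold higher and 1 lower, and against depth-matched cells 1 of 6 was higher.

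Of 8 measured migration receptor genes, 4 were at least 2-fold higher and 1 lower. Against depth-matched cells, 0 were higher and 2 lower. Ccr2, a receptor for inflammatory chemokines, was at 189 CPM in the effector cells and 44.9 CPM in the other cells, and Cxcr6 at 232 and 66.3. Cxcr3, which responds to interferon-induced chemokines, was lower, at 52.9 and 97.3 CPM, but not by 2-fold. Integrin and adhesion genes had 8 of 13 measured at least 2-fold higher, with a median log2 ratio of 1.56, among them Itga1, Itga4, Itgal, Itgb1 and Itgb2. Against depth-matched cells 1 of 13 was, Fgl2, with a median of 0.20. Itga4, the alpha chain of VLA-4, was at 437 and 127 CPM.

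No other sphingosine 1-phosphate receptor gene measured here reached 2-fold. S1pr1, the receptor by which T cells leave lymph nodes, was at 137 CPM in the effector cells and 132 CPM in the other cells, and S1pr4 was 1.86-fold higher, at 244 and 131 CPM. Klf2, which induces S1pr1, was at 1927 and 1232 CPM. Of 6 measured egress genes, 0 were at least 2-fold higher and 2 lower: Cd69, whose product holds S1PR1 inside the cell, and the oxysterol receptor Gpr183 at 15.03 and 71.5 CPM. S1pr1 had a log2 ratio of 0.05 here and was below 0 with TMM scaling, since that scaling lowers every log2 ratio by the same amount.

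S100, annexin and galectin genes had 11 of 15 measured at least 2-fold higher and none lower, with a median log2 ratio of 1.32. Of all genes compared, 7.99% were at least 2-fold higher. Against depth-matched cells 0 of these 15 were, with a median of 0.21. Lgals1 (galectin 1) was at 2877 CPM in the effector cells and 543 CPM in the other cells, Lgals3 at 315 and 65.6, Anxa1 at 39.8 and 5.99, and S100a4 at 1349 and 353. Cytoskeleton genes had 5 of 17 at least 2-fold higher, among them Flna at 264 and 111 CPM, but 1 with TMM scaling, 2 after thinning and 0 against depth-matched cells.

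Stem and memory genes were lower. Of 13 measured, 8 were at least 2-fold lower and none higher, with a median log2 ratio of -1.29. Against depth-matched cells 3 of 12 measured were at least 2-fold lower, Tcf7, Slamf6 and Il7r, with a median of -0.66. Tcf7, which encodes TCF-1 and marks cells able to renew, was at 42.7 (38.7–47.0) CPM in the effector cells and 234 CPM in the other cells, 5.49-fold (4.97–6.07) lower. Il7r (CD127) was at 106 and 356 CPM, Slamf6 at 18.8 and 89.3, Bach2 at 7.36 and 28.7, and Bcl2 at 126 and 326. After thinning, a Tcf7 UMI was seen in 9.71% of the effector cells and 43.0% of the other cells. Of 10 measured naive genes, 8 were at least 2-fold lower, with a median log2 ratio of -4.06. That median was -2.69 without the Ccr7 condition. Against depth-matched cells 2 of 5 measured naive genes were at least 2-fold lower, Dapl1 and Cd55, with a median of -0.27. Ly6c2, on the same list, was at 2113 CPM in the effector cells and 1278 CPM in the other cells. The IL-6 receptor genes Il6ra and Il6st were at 1.43 and 3.68 CPM in the effector cells, against 37.5 and 27.5 CPM in the other cells.

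Inhibitory receptor genes were low in all blood cells. Pdcd1 (PD-1) was at 3.68 CPM in the effector cells and 2.83 CPM in the other cells, Lag3 at 10.9 and 7.96, and Havcr2 at 5.01 and 0.638. Of 14 such genes, 11 were below 20 CPM on both sides. Entpd1 (CD39) was at 32.6 and 6.38 CPM, and Tox, a factor of exhausted cells, at 10.7 and 22.0 CPM.

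Interferon response genes had a median log2 ratio of -0.49, below the median gene, with 0 of 13 past 2-fold but 5 lower with TMM scaling and 6 with totals without ribosomal and mitochondrial genes. No gene of 17 for oxidative phosphorylation or of 12 for the T cell receptor complex reached 2-fold, and 2 of 13 glycolysis genes did, Slc2a3 and Pfkp. Of 14 immediate early genes, 4 were at least 2-fold lower, Jun, Fos, Cd69 and Dusp1, and Dusp2 was higher, at 345 CPM in the effector cells and 115 CPM in the other cells. Of 8 measured division genes, 3 were at least 2-fold higher, Stmn1, Top2a and H2afz, but 1 with TMM scaling. Stmn1 was at 119 CPM in the effector cells and 38.0 CPM in the other cells. Mki67, below 20 CPM on both sides, was at 575 CPM in 10 effector cells of one cluster and 8.28 CPM in the 1616 of another. Among survival genes Bcl2a1d and Bcl2a1b, near-identical copies, were 4.52-fold and 3.13-fold higher. With TMM scaling the list medians of the egress, inhibitory receptor, cytokine receptor, survival, glycolysis and oxidative phosphorylation genes fell below 0.

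**Figure D3:**
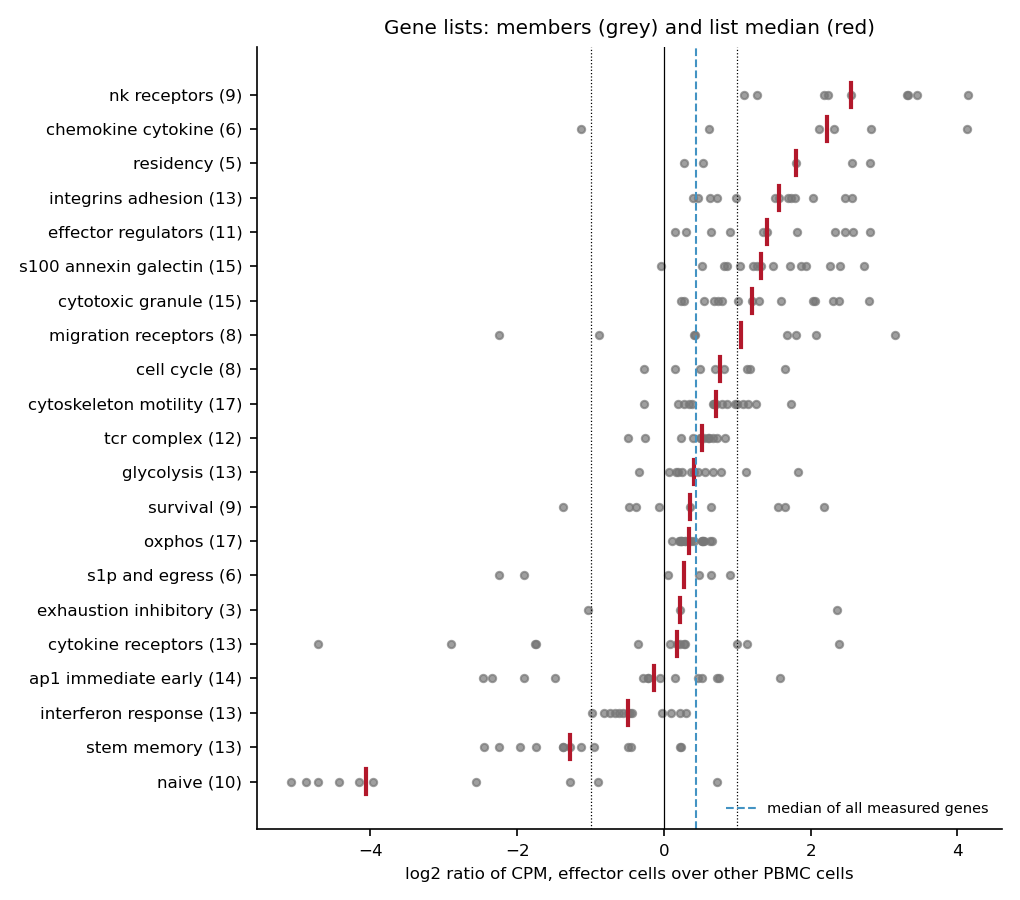
Log2 ratio of CPM, effector cells over other blood cells, of each measured gene (grey points) in 21 lists, with the list median (red bar) and the number measured in brackets; the dashed line is the median of all 4843 genes, 0.44, and the dotted lines mark 2-fold. NK receptor genes have the highest list median, 2.55, and naive genes the lowest, -4.06.

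Depth moved with the difference. Against 950 other blood cells of 4000 to 7000 UMIs, whose median of 5491 UMIs was near that of the effector cells, only 21 of 4827 genes were at least 2-fold higher, 0.435%, and 22 lower, 0.456%, and the median log2 ratio over all genes was 0.09. This set was chosen after the first values were seen. It is also a different mixture, since 40.7% of these cells lay in the cluster that held most effector cells and 47.3% in its neighbour. The part that depth itself played was not tested. Klra9 was still at 55.5 CPM in the effector cells against 13.5 CPM in the depth-matched cells, 4.10-fold (3.20–5.33) higher. Klre1 was 2.88-fold (2.62–3.19), Klrb1c 2.58-fold (2.10–3.18), Kcnj8 2.52-fold (2.23–2.84) and Klrg1 2.20-fold (2.01–2.41) higher. Esm1 was 4.23-fold, Ccl9 3.62-fold, Stmn1 2.66-fold and Fgl2 2.39-fold higher, with the histone genes Hist1h1b, Hist1h2ae and Hist1h2ap also among the 21, and Gzma, Zeb2 and S1pr5 there by construction.

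Cx3cr1 was 1.87-fold (1.747–1.995) higher against these cells, at 407 and 218 CPM, Gzmb 1.79-fold, Tbx21 1.67-fold and Prf1 1.41-fold. S100a4 was at 1349 CPM in the effector cells and 1435 CPM in the depth-matched cells, Cxcr6 at 232 and 233, and Itgax at 39.1 and 39.7. Of cytotoxic genes 0 of 15, of S100 and annexin genes 0 of 15 and of NK receptor genes 4 of 9 were at least 2-fold higher. On the lower side Ifitm1 was at 2.15 and 32.4 CPM, Gpr183 at 15.03 and 57.4, Cxcr3 at 52.9 and 171, Il7r at 106 and 254, Tcf7 at 42.7 and 119, Tox at 10.7 and 37.0, and Dapl1 at 12.2 and 48.7.

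**Figure D4:**
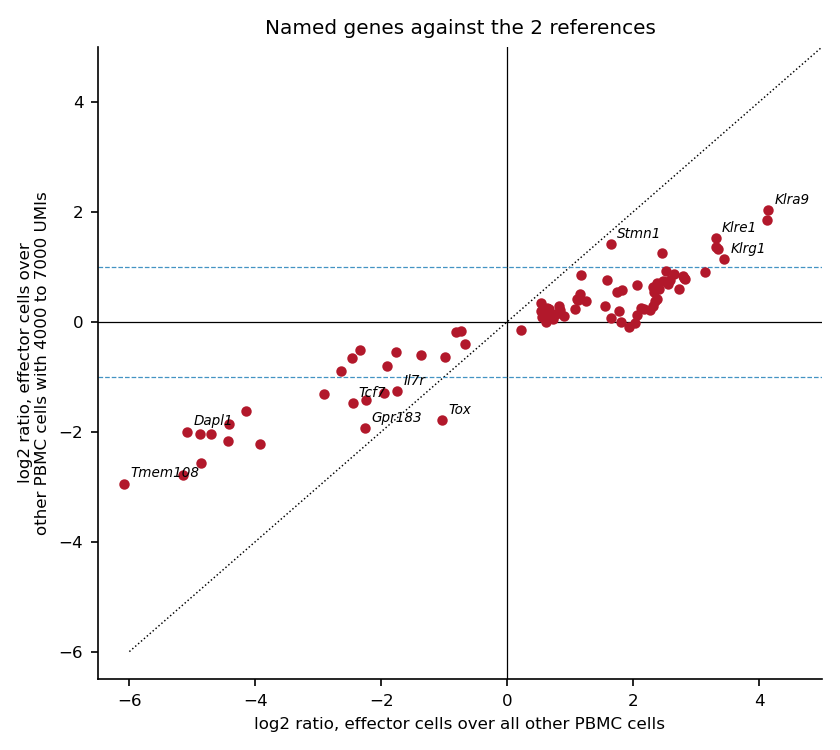
Log2 ratio of each named gene in the effector cells over all other blood cells (horizontal) and over the 950 other blood cells of 4000 to 7000 UMIs (vertical); the dotted line marks equal values and the dashed lines 2-fold. Klra9 and Klre1 stay above 2-fold on both axes, most other high genes fall between the dashed lines, and Tcf7, Il7r and Dapl1 stay below 2-fold on both.

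The 358 cells with Gzma but without Zeb2, S1pr5 or Ccr7 had a median of 5698.5 UMIs. Against them 45 of 4849 genes were at least 2-fold higher, 0.928%, and 36 lower, 0.742%. As3mt was 3.43-fold, Kcnj8 3.09-fold, Klra9 2.87-fold, Klrg1 2.59-fold, Klre1 2.31-fold and Cx3cr1 2.26-fold higher. Cxcr3 was at 52.9 CPM in the effector cells and 183 CPM in those cells, Gpr183 at 15.03 and 53.3, and Rgs10 at 10.9 and 52.9.

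Cx3cr1, Klrg1, Gzmb and Prf1 were detected with either kind of beta chain, and Il7r and Tcf7 were higher in the cells with Trbv13-3. In the 100 effector cells with a Trbv13-3 UMI, Cx3cr1 was at 398 (349–451) CPM, Klrg1 at 205 (170–244), Gzmb at 431 (380–486) and Prf1 at 241 (203–283). In the 228 effector cells with another beta segment and none of Trbv13-3, they were at 427 (393–463), 253 (227–281), 545 (506–585) and 277 (250–307) CPM. Il7r was at 198 (164–237) CPM in the cells with Trbv13-3 and 87.7 (72.7–105) CPM in the cells with another segment, Tcf7 at 95.7 (72.7–124) and 40.5 (30.5–52.8), and Trdc, a delta chain gene, at 272 (232–317) and 42.0 (31.8–54.4). In the 936 other blood cells with a Trbv13-3 UMI, Cx3cr1 was at 15.3 and Gzmb at 29.2 CPM. With both sides limited to cells with a Trbv13-3 UMI, 4819 genes could be compared. There 790 passed 2-fold upward in the effector cells and 152 downward, at median depths of 5312 and 12198.5 UMIs. The 100 effector cells summed to 605806 UMIs, so few UMIs stand behind a gene near the 20 CPM minimum. The part of counting error in the 790 and 152 was not tested. The Trbv13-3 comparison was added after the values were seen.

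Within the effector cells, few genes separated those found by Zeb2 from those found by S1pr5. Exactly 1 UMI was seen in 26.9% of the effector cells for Zeb2, 36.1% for S1pr5 and 30.2% for Klrg1. Splits by detection of these genes can thus part cells that express them alike. Few differences do not show that the cells are uniform. Between cells with Zeb2 and no S1pr5 and cells with S1pr5 and no Zeb2, 24 genes passed 2-fold upward in the first, 0.479% of 5015, and 28 downward, 0.558%. Zeb2 and S1pr5 are among these by construction. Of 12 measured division genes, 4 were at least 2-fold higher in the cells with S1pr5 only, Birc5, Ube2c, Pclaf and Mki67. Klrg1 was at 226 CPM in both, and Cx3cr1 at 376 (357–395) and 353 (314–395) CPM. Dapl1 was at 8.58 (5.94–11.99) CPM in the cells with Zeb2 only and 67.2 (50.9–87.1) CPM in those with S1pr5 only. Cenpa, a centromere gene, was at 29.5 and 56.6 CPM. Whether a few of the 158 cells with S1pr5 only carry the Dapl1 and division gene values was not tested. Effector cells with a Klrg1 UMI differed from those without by 2 genes at least 2-fold higher, 0.0411% of 4869 and Klrg1 itself among them, and 4 lower, 0.0822%. In CPM, Il7r was at 84.6 in cells with Klrg1 and 152 in cells without, Cxcr3 at 43.6 and 72.9, Cd27 at 69.3 and 106, and Stmn1 at 135 and 84.8. Cells with both Zeb2 and S1pr5 had Cxcr3 at 37.2 CPM, against 69.0 CPM in cells with only 1 of them, and 2 genes, 0.0411% of 4872, were at least 2-fold higher, S1pr5 by construction and Hist1h1b, and 1 lower, 0.0205%, which was Trdc.

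Clustering of all blood cells without Gzma, Zeb2, S1pr5 and Ccr7 gave 7 clusters, which are numbered and not named. Cluster 1 held 1616 of the 1809 effector cells, 89.3%, and 77.1% of its 2095 cells were effector cells. Its leading genes were Klra9, Klrg1, Klrb1c, Kcnj8, Cx3cr1 and Klre1. Cluster 2, led by Ier3, Serpina3g, S100a6 and Cxcr3, held 109 effector cells, 6.03%. Cluster 3 held 46, and its leading genes were those of platelets, such as Ppbp and Treml1. Clusters 4, 5 and 6 held 16, 11 and 10, the last of these led by the division genes Birc5 and Ube2c, and cluster 7, led by Igfbp4 and Il6ra, held 0. Dapl1, though on the list of naive genes, was highest over all cells of cluster 6, at 1091 CPM, against 561 CPM in cluster 7. Of the 15 nearest neighbours of an effector cell, a median of 80% were effector cells, and of the neighbours of the other cells a median of 0%.

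The 109 effector cells of cluster 2 had lower levels of Klrg1, Cx3cr1 and Klre1 and higher levels of Cxcr3, Il7r and Tcf7. Against the effector cells of cluster 1, 60 of 5008 genes were at least 2-fold higher, 1.20%, and 147 lower, 2.94%. The clusters were made from these genes, so the values are a description. Cxcr3 was at 185 CPM in cluster 2 and 40.5 CPM in cluster 1, Il7r at 314 and 84.2, Tcf7 at 94.0 and 34.8, and the costimulatory gene Icos at 54.9 and 18.0. Klrg1 was at 78.1 and 266 CPM, Cx3cr1 at 178 and 436, and Klre1 at 59.3 and 288. Gzmk was at 241 and 233 CPM and Gzmb at 444 and 533.

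**Figure D5:**
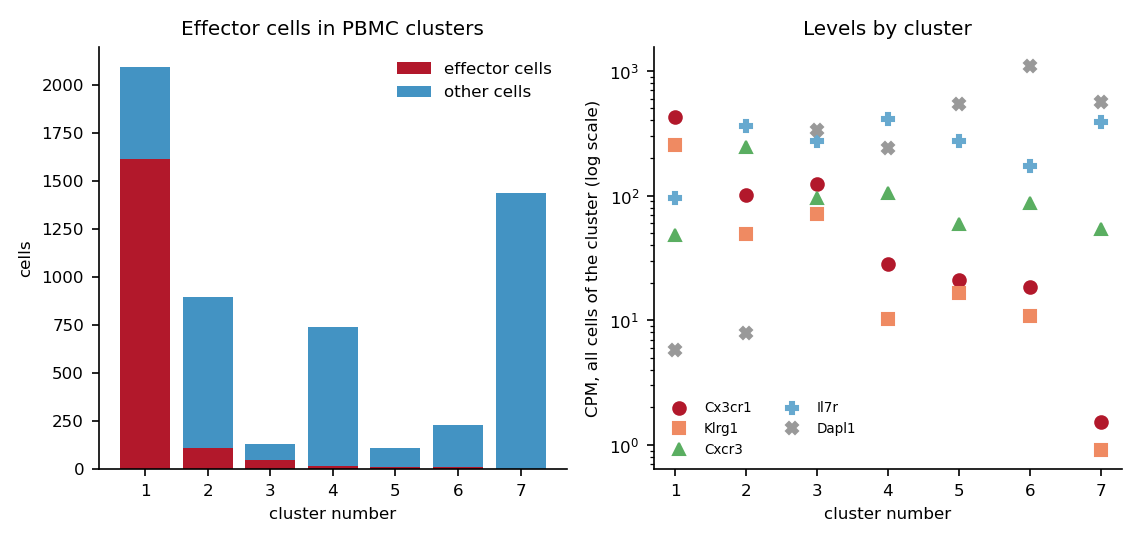
Left, effector cells (red) and other cells (blue) in each of 7 blood clusters made without Gzma, Zeb2, S1pr5 and Ccr7; right, CPM (log axis) of 5 genes over all cells of each cluster, each point 1 summed cluster. Cluster 1 holds 1616 of the 1809 effector cells, and cluster 7 holds 0.

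Markers of other cell types, summed per list over the genes found in the counts, were at 113 CPM or less in the effector cells. Genes of gamma-delta T cells were the highest, at 113 CPM in the effector cells and 308 CPM in the other cells. Only 6 of the 8 genes on that list were found by name. The gamma chain constant genes Trgc1 and Trgc2 were not, so the sum leaves them out. At least 2 UMIs of the 6 genes were in 158 effector cells (8.73%) and 1515 other cells (39.4%). Summed platelet genes were at 98.0 CPM in the effector cells and 45.0 CPM in the other cells, with all 9 genes detected in both. At least 2 platelet UMIs were in 82 effector cells (4.53%) and 155 other cells (4.03%). Summed B cell genes were at 14.7 and 125 CPM, and at least 2 of their UMIs were in 1.27% and 33.9% of the cells. Monocyte and macrophage genes were at 37.9 and 17.3 CPM, and dendritic cell genes, nearly all Itgax, at 43.7 and 11.5 CPM. Csf1r, Fcgr1, Adgre1, C1qa, C1qb and Ms4a1 were at 0 in the effector cells, and no neutrophil gene of 7 was detected in them. Leaving out cells with platelet, erythroid, B, monocyte or neutrophil marker UMIs, 136 of them effector cells, gave 257 genes at least 2-fold higher and 91 lower. The part of these cells in the results was otherwise not tested.

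The same conditions found 40 of 7003 memory cells, 0.571% (0.408–0.777), and 3 of 6265 TdLN cells, 0.0479% (0.00988–0.140). The memory library had been sorted as KLRG1-, and the part of that gate in its share was not tested. In the 40 memory cells, which summed to 237299 UMIs, Cx3cr1 was at 244 (186–316) CPM, against 2.83 CPM in the other memory cells, Gzmb at 472 (389–568) and 26.2, Klre1 at 189.6 (138–254) and 2.26, and S100a4 at 1504 (1352–1669) and 246. Klrg1 was at 194 (142–259) CPM in the 40 cells and 4.85 CPM in the others. Il7r was at 489 (404–586) and 752 CPM, and Tcf7 at 88.5 (54.8–135) and 171 CPM. In all, 850 genes passed 2-fold upward in the 40 cells, 16.1% of 5272, and 154 downward, 2.92%. In these 40 cells 3 counts already make 12.6 CPM, so genes near the minimum of 20 CPM rest on few UMIs. The part of counting error in the 850 and 154 was not tested.

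The direction seen in blood was shared by part of the genes. Of 384 genes at least 2-fold higher in blood, without the genes of the choice, 324 were measured in the memory library and 173 of these, 53.4%, were at least 2-fold higher there, against 10.3% of all genes measured in both. Of 105 lower genes, 84 were measured and 37, 44.0%, were at least 2-fold lower, against 3.01% of all. The conditions were the same in both libraries, so cells alike in the 4 genes were compared and the shares are a description. The few UMIs of the 40 cells limit these shares too. The 40 cells also had a median of 5445 UMIs, against 9980 in the other memory cells. Ribosomal protein genes took 27.2% of their counts and 40.8% of the other memory cells' counts. The median gene was 0.44 higher on the log2 scale in the 40 cells. Depth and ribosomal share thus differed in the same direction as in blood, and their part in these shares was not tested. All 12 Ncr1 UMIs, 28 Tyrobp UMIs and 16 Fcer1g UMIs of the 40 cells were in 1 cell each, whereas Cd8b1 was at 1403 CPM in them and 1064 CPM in the other memory cells. The 3 TdLN cells were too few to describe as a set.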

How the data were processed

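Blood, TdLN and memory libraries were read from UMI counts that the authors deposited without normalization, as whole numbers for each gene in each cell. The counts were made with Cell Ranger 3.1.0 on mm10, per the submitters' processing notes. Barcodes had been called as cells before deposit: 6165 for blood, 7503 for TdLN and 8321 for memory. Reads were counted at the 3′ end, so isoforms and full receptors are not seen, and near-identical genes such as the Klr family may share reads. Samples were grouped by their labels.

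Counts were summed per cell set and divided by their total (CPM). CPM has an exact Poisson, a ratio a conditional binomial and a share a Clopper-Pearson 95% interval (scipy 1.17.1), for counting error only. PCR copies are collapsed by UMI. A count of 0 allows up to 0.307 CPM in the effector cells and 0.0765 CPM in the other blood cells (3 counts). Ratios needed 20 CPM on the higher side, and 2-fold is a fixed rule of size. TMM factors came from edgeR 4.0.16, without a test. Shares of cells were also read after thinning to 3000 UMIs. Clusters used scikit-learn 1.9.0 and leidenalg 0.10.2. Scrublet (scanpy 1.11.5) marked 13 cells, a number not relied on here. Doublets were kept, and an alternative removed the 283 highest scores, 79 of them effector cells.

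Named genes are the markers, the 12 genes highest and the 12 lowest by ratio, given 50 CPM or more on the higher side (no ribosomal, mitochondrial, predicted, receptor segment, haemoglobin, histone, Xist or Y-linked genes), and up to 4 per list. Some genes of that rule are not reported here. Others, such as Esm1, Ifitm1 and the V segments, were named after their values were seen. The members and lists were chosen with earlier results of these data known. The calculation was tested on simulated data for 4186 genes of the main comparison. There 100 of 100 genes at 2.5-fold and 100 of 100 at 5-fold were recovered, with 0 unchanged genes called. Both planted sizes lie above the 2-fold rule, so the simulation checks only the arithmetic and counting error. Whether depth, ribosomal share or variation between cells can carry a gene past 2-fold was not tested by the simulation. Of 31053 gene IDs, 30934 were in GENCODE M21.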

Additional observations from a re-analysis of the deposited data

Results flagged for a closer look

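Of the 513 blood barcodes that the cell filter removed, 48 met the gene conditions on Gzma, Zeb2, S1pr5 and Ccr7, which is a signal in barcodes outside the comparison. Of these, 47 had over 10% mitochondrial counts and 26 had under 500 genes. Without a cell filter 1857 cells met the conditions, against 1809 with it.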

How the results depend on the processing

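No paired analysis was possible because each group has 1 library. Counts of effector cells were 1427 with 1000 genes and 5% mitochondrial counts as limits, 1698 with at least 2 Gzma UMIs, 914 with both Zeb2 and S1pr5, 1916 without the Ccr7 condition, 1429 read in one part of randomly split UMIs, 1495 after thinning, 1730 without the highest doublet scores, 1673 without cells with markers of other types, 1655 without NK marker cells and 100 among cells with a Trbv13-3 UMI. Genes at least 2-fold higher and lower, 387 and 106 as reported, were 170 and 249 with TMM, 164 and 262 with totals without ribosomal and mitochondrial genes, 2769 and 2726 with no minimum level, 104 and 36 with a minimum of 100 CPM, 49 and 40 against other cells without Ccr7, and 21 and 22 against depth-matched cells. Higher genes alone moved to 233 after thinning, 236 with equal weight per cell and 254 against other cells with Gzma. They moved to 257 without cells with markers of other types and to 790 among Trbv13-3 cells. That last count rests on only 100 effector cells, and the part of counting error in it was not tested. Against depth-matched cells the log2 ratios of Cxcr6 (-0.0066), Itgax (-0.023) and S100a4 (-0.089) reversed, and the cause was not tested. Of 73 named genes past 2-fold, 27 stayed past it in all 19 settings, among them Gzma, Zeb2 and S1pr5, which pass by construction. The settings with no minimum level and with a minimum of 100 CPM leave every ratio as it was, so no named gene could fail there. Depth-matched, NK marker and Trbv13-3 settings were chosen after seeing the data. Read in the unused part of the split UMIs, the log2 ratio was 2.79 for Cx3cr1 and 3.01 for Klrg1.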
